A study of Mus musculus with 18 samples.

Results

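Hormone receptors and hormone-sensing luminal genes, 8 in all, were followed through 18 libraries of mouse mammary organoids, and 3 media were compared in 2 genotypes. The genes were matched by symbol in the deposited annotation, all 8 of 8 were found among 55536 genes, and they were Esr1, Pgr, Prlr, Cited1, Tnfsf11, Stc2, Prom1 and Ly6a. The set was chosen with earlier results of these data known. Of the 8, 7 had enough reads to be tested, Tnfsf11 being the exception. Organoids are small cell clusters grown in a gel. Here they were made from mammary glands of C57BL/6 mice aged 6 to 7 weeks that were either wild type (WT) or RasGRP1-/- (KO), that is, without the Ras exchange factor RasGRP1. All cultures were held in matrigel with DMEM/F12, insulin, transferrin and selenium for 5 days. They received 2.5 nM EGF (EGF medium), 0.1 nM NGS-Wnt with 8.3 nM Rspo2 (WR medium), or all 3 factors at these doses (EGF-WR medium). NGS-Wnt is an engineered protein that stands in for Wnt, and Rspo2, an R-spondin, amplifies Wnt signalling. Among the components of the media, the labels name no oestrogen, progesterone or prolactin. Each group held 3 libraries, described as biological replicates, and each of 3 labelled batches held 1 library of every group. Whether the replicates came from separate mice, and what the batches were, is not given in the sources used here.

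In the mammary gland, oestrogen, progesterone and prolactin are sensed mainly by a subset of luminal cells, the cells that line the ducts. These hormone-sensing cells pass the signal on to their neighbours by secreted factors, among them amphiregulin, Wnt4 and RANKL. Esr1 and Pgr encode the nuclear receptors of oestrogen and progesterone, and Pgr is itself a classic target of the oestrogen receptor. Prlr encodes the prolactin receptor, which signals through the kinase JAK2 and the transcription factor STAT5. Cited1 is a transcriptional co-regulator found in hormone-sensing cells, Tnfsf11 encodes RANKL, and Stc2 encodes the secreted glycoprotein stanniocalcin 2. Prom1 (CD133) and Ly6a (Sca-1) are surface proteins used to sort hormone-sensing luminal cells. Ly6a is also known from endothelial, stromal and blood cells and as a gene that responds to interferon.

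On GRCm38, Esr1 lies on chromosome 10 from 4611593 to 5005614, Pgr on chromosome 9 from 8899833 to 8968611 and Prlr on chromosome 15 from 10177238 to 10349180, all 3 on the plus strand. Cited1 lies on chromosome X from 102247381 to 102252181, Tnfsf11 on chromosome 14 from 78277445 to 78308043 and Stc2 on chromosome 11 from 31357307 to 31370074, on the minus strand. Prom1 lies on chromosome 5 from 43993620 to 44102032 and Ly6a on chromosome 15 from 74994877 to 74998031, both on the minus strand. All 8 are annotated as protein coding, and the counts were made per gene. The sequences just upstream of 4 members are shown because these 4 genes represent both patterns described below, Pgr that of the nuclear receptors and Prlr, Cited1 and Stc2 that of the other group. They are printed 5′ to 3′ from RefSeq (GRCm38.p6), in lower case, with each CpG in capitals, and they cover chr9:8899583-8899832 on the plus strand, chr15:10176988-10177237 on the plus strand, chrX:102252182-102252431 on the minus strand and chr11:31370075-31370311 on the minus strand.
Pgr: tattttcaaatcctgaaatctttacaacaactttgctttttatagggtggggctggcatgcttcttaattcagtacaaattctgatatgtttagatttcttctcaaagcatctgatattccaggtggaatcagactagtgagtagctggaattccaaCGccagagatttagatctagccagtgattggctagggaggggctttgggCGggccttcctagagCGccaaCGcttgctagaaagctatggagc
Prlr: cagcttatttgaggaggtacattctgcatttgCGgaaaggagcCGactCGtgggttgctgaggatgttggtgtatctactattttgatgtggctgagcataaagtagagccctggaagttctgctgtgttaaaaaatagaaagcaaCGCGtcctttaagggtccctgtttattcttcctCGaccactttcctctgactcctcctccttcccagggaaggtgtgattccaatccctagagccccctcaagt
Cited1: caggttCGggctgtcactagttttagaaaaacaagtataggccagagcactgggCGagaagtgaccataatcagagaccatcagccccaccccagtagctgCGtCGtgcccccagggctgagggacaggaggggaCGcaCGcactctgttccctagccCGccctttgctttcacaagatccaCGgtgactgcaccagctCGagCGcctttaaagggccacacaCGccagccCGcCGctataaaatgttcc
Stc2: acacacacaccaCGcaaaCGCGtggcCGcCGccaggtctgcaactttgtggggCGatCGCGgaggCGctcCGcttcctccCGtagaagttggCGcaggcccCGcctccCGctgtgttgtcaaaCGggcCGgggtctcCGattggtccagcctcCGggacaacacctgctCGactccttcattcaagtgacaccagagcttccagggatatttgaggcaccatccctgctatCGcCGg
The printed windows hold 4 CpG in Pgr, 6 in Prlr, 13 in Cited1 and 21 in Stc2. Over all 27026 RefSeq promoters of 250 bases, the median was 6 CpG, with quartiles of 2 and 16. Among the 3 genes that share a pattern, the windows thus ran from the median of all promoters (Prlr) to above the upper quartile (Stc2). For the 7 members with an entry, both strands of the 250 bases before the outermost RefSeq start were searched for 7 motifs. For Esr1 and Prom1 this window lies inside the gene coordinates given above, and that of Stc2 reaches into them. No member held the oestrogen response element (0.0629% of all promoters), the half-site AGGTCA (13.8%), the STAT5 site TTCNNNGAA (7.14%) or the TCF/LEF site CTTTGAT (3.26%). None held the steroid receptor element (0.377%) or the ETS core CCGGAAG (7.07%), and the AP-1 site TGANTCA (6.85%) was found in Prom1 alone. The full element is a palindrome of the half-site, so that a match of the first contains most of a match of the second. An absence says only that these letters are not in this window.

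The libraries held 24290097 to 31269899 counts and 18926 to 22319 detected genes. Rasgrp1 itself was low, with 6 to 28 counts in each of the 9 WT libraries (145 in all) and 0 to 9 in the 9 KO libraries (25 in all, 5 libraries at 0). Epithelial markers were present in every group: a list of 9 luminal keratins and epithelial genes summed to 4457.5 to 6937.2 CPM (read counts scaled to the effective library size) over the libraries with the lowest and the highest sum. Markers of other cells were present too. The summed level of 10 fibroblast markers ran from 405.21 to 2886.1 CPM, and that of 10 endothelial markers from 137.58 to 684.99 CPM. Lymphocyte markers were near absent, 7 of 8 being under 0.1 CPM on average. In such bulk samples, fewer cells of a type and less RNA per cell cannot be told apart.

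Levels of the members spanned a wide range. Per kilobase of exon, the mean over 18 libraries was 22.2 CPM for Stc2, 22.1 for Ly6a, 9.59 for Prlr, 3.87 for Cited1, 3.76 for Pgr, 2.89 for Prom1, 1.26 for Esr1 and 0.0142 for Tnfsf11. The prolactin receptor was thus the most abundant of the 3 hormone receptors per length, and the oestrogen receptor the least. The next paragraphs give levels in CPM not scaled to length, with batches 1, 2 and 3 in that order, and log2 changes with their standard error (SE) from edgeR's quasi-likelihood test with batch as a term. A change is called at a Benjamini-Hochberg adjusted p under 0.05 over 17092 genes. Changes between media are first given as the average over both genotypes, since no member's response was called different between genotypes.

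**Figure D1:**
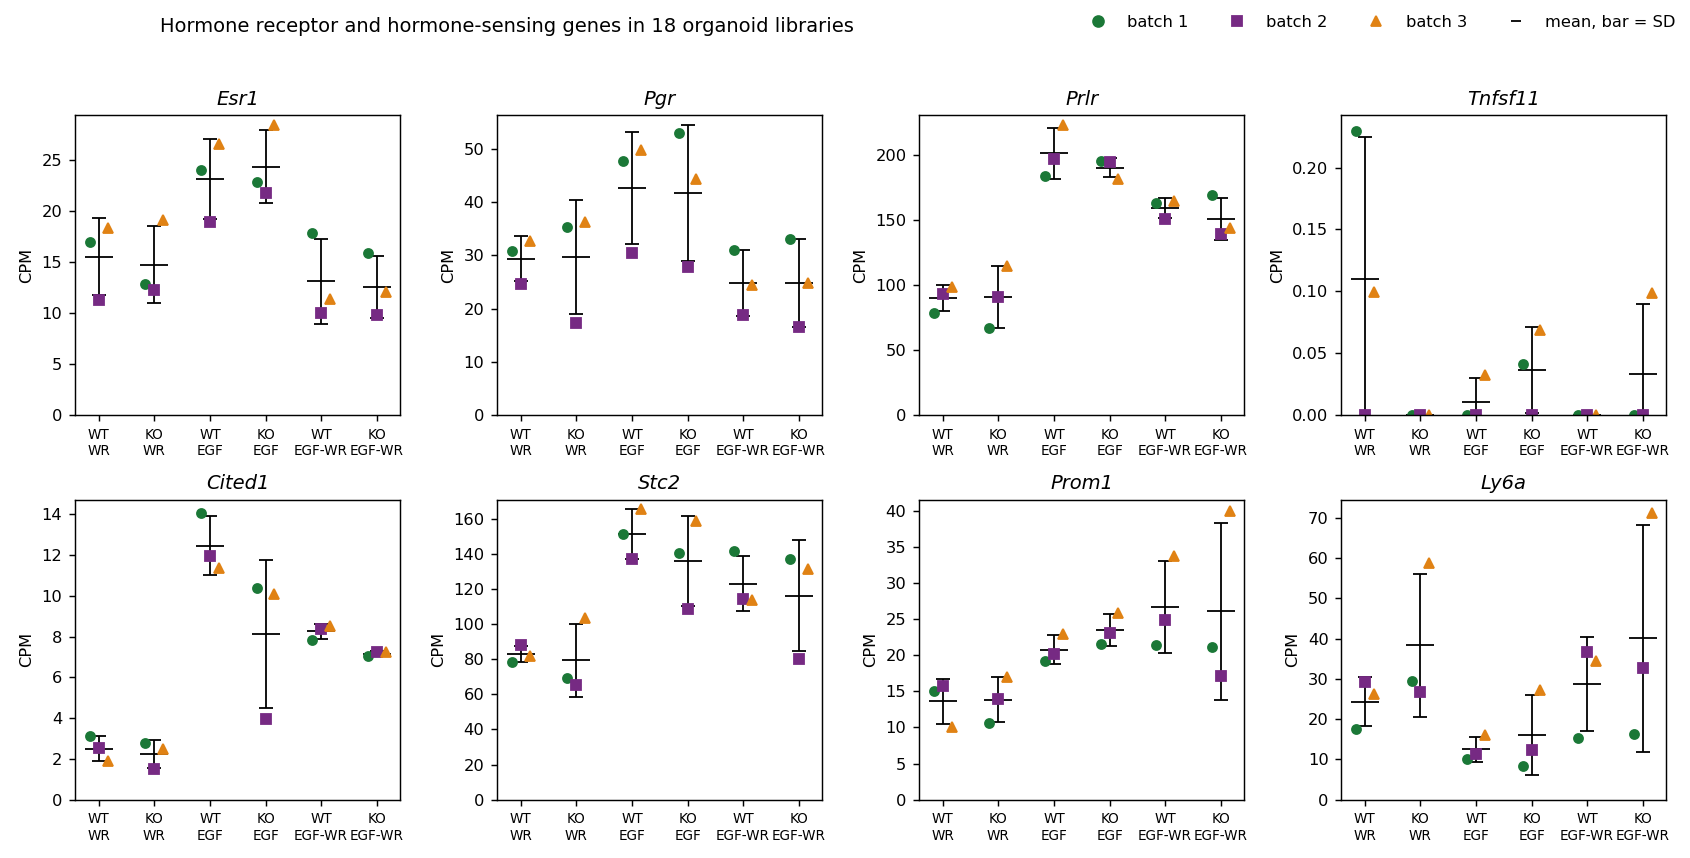
Level of each of the 8 genes (CPM, linear axis starting at 0) in the 6 groups, WT and KO in WR, EGF and EGF-WR medium, with 1 point per library, its shape and colour giving the batch, and mean ± SD as bars. Esr1 and Pgr are highest in EGF medium, Prlr, Cited1 and Stc2 are lowest in WR medium, Ly6a is lowest in EGF medium, and Tnfsf11 stays at or under 0.230 CPM.

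Esr1 was highest in EGF medium in both genotypes. Esr1 levels in WT were 17.0, 11.3 and 18.4 CPM with WR medium, 24.03, 18.9 and 26.6 with EGF medium, and 17.9, 10.1 and 11.4 with EGF-WR medium. KO levels of Esr1 were 12.9, 12.3 and 19.1 CPM with WR medium, 22.9, 21.8 and 28.5 with EGF medium, and 15.9, 9.81 and 12.1 with EGF-WR medium. Within each genotype the EGF libraries lay above all others, and the levels in WR and EGF-WR media overlapped. Against WR medium, Esr1 rose by 0.66 ± 0.13 on the log2 scale in EGF medium, a 1.58-fold change (edgeR adjusted p = 0.000771). Against EGF medium, it fell by 0.90 ± 0.13 when NGS-Wnt and Rspo2 were added, to 0.537 of its level (edgeR adjusted p = 6.72e-05). The difference between EGF-WR and WR medium was -0.24 ± 0.13 (95% interval -0.51 to 0.04, edgeR adjusted p = 0.219). It ran from 0.19 in batch 1 to -0.67 in batch 3, and without batch 1 it was called (edgeR adjusted p = 0.0264).

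Pgr followed the order of Esr1. Pgr levels in WT were 30.8, 24.7 and 32.8 CPM with WR medium, 47.7, 30.5 and 49.8 with EGF medium, and 31.1, 18.8 and 24.4 with EGF-WR medium. KO levels of Pgr were 35.3, 17.3 and 36.3 CPM with WR medium, 52.9, 27.8 and 44.3 with EGF medium, and 33.0, 16.5 and 24.8 with EGF-WR medium. The groups overlapped because batch 2 was low in every group, while within each batch the EGF library was the highest of the 3 in both genotypes. Averaged over genotypes, Pgr rose by 0.51 ± 0.09 on the log2 scale in EGF against WR medium, 1.42-fold (edgeR adjusted p = 0.000541). This call rested on the batch term: without it the adjusted p was 0.172. From EGF to EGF-WR medium, Pgr fell by 0.76 ± 0.09, to 0.589 of its level (edgeR adjusted p = 1.88e-05). The difference of EGF-WR from WR medium, -0.26 ± 0.09 (95% interval -0.46 to -0.06), just missed the threshold (edgeR adjusted p = 0.0582). It was called by DESeq2 (adjusted p = 0.0409) and by edgeR without WT in WR medium of batch 1 (0.0212), KO in EGF-WR medium of batch 1 (0.0353) or KO in WR medium of batch 2 (0.0192).

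Prlr, the receptor with the most reads, was high in both media with EGF and low in WR medium. Prlr levels in WT were 78.7, 92.9 and 98.3 CPM with WR medium, 184, 197 and 223 with EGF medium, and 163, 151 and 165 with EGF-WR medium. KO levels of Prlr were 67.2, 91.1 and 115 CPM with WR medium, 195, 194 and 182 with EGF medium, and 169, 140 and 144 with EGF-WR medium. The 6 EGF libraries, the 6 EGF-WR libraries and the 6 WR libraries formed 3 ranges that did not overlap, from 182 to 223, from 140 to 169 and from 67.2 to 115 CPM. Against WR medium, Prlr rose by 1.12 ± 0.10 on the log2 scale with EGF, 2.17-fold (edgeR adjusted p = 4.14e-07), and by 0.79 ± 0.10 with all 3 factors, 1.73-fold (2.31e-05). The step from EGF to EGF-WR medium was smaller, a drop of 0.33 ± 0.09 to 0.794 of the level (edgeR adjusted p = 0.0161). That call was lost without the batch term (0.0584), without KO in EGF medium of batch 1 (0.0501), without KO in EGF-WR medium of batch 3 (0.0511), and without all of batch 2 (0.226) or batch 3 (0.0722). Of the 50-base windows along Prlr's exons, 1.04% occur in another gene, and its exons overlap the predicted gene Gm21973 on the same strand.

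Cited1 had the largest fold changes of the 7 tested members against WR medium. Cited1 levels in WT were 3.11, 2.52 and 1.89 CPM with WR medium, 14.1, 11.96 and 11.4 with EGF medium, and 7.85, 8.39 and 8.52 with EGF-WR medium. KO levels of Cited1 were 2.79, 1.48 and 2.48 CPM with WR medium, 10.4, 3.95 and 10.1 with EGF medium, and 7.02, 7.23 and 7.23 with EGF-WR medium. All 12 libraries with EGF lay above all 6 without it, and the KO library of batch 2 in EGF medium was low for its group. Against WR medium, Cited1 rose by 2.07 ± 0.20 on the log2 scale with EGF, 4.21-fold (edgeR adjusted p = 5.71e-07), and by 1.72 ± 0.20 with all 3 factors, 3.28-fold (8.05e-06). The difference of EGF-WR from EGF medium was -0.36 ± 0.19 (95% interval -0.76 to 0.04, edgeR adjusted p = 0.178). Without that low KO library it was called (edgeR adjusted p = 0.0218), as it was without batch 2 (0.0234).

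Stc2 moved like Prlr, with smaller steps. Stc2 levels in WT were 78.7, 88.2 and 82.1 CPM with WR medium, 151, 137 and 165 with EGF medium, and 141, 114 and 114 with EGF-WR medium. KO levels of Stc2 were 69.4, 65.5 and 103 CPM with WR medium, 141, 109 and 159 with EGF medium, and 137, 80.0 and 131 with EGF-WR medium. The EGF libraries lay above all WR libraries, and the EGF-WR libraries overlapped both. Against WR medium, Stc2 rose by 0.81 ± 0.12 on the log2 scale with EGF, 1.76-fold (edgeR adjusted p = 0.00012), and by 0.55 ± 0.12 with all 3 factors, 1.47-fold (0.00324). The second of these was lost without batch 1, where it was largest (0.91 on the log2 scale against 0.33 and 0.41 in batches 2 and 3, edgeR adjusted p without batch 1 of 0.129). EGF-WR differed from EGF medium by -0.26 ± 0.12 (95% interval -0.51 to -0.01, edgeR adjusted p = 0.111).

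Tnfsf11 was at the limit of detection in every group. It had 17 counts over all 18 libraries: 7, 0 and 3 for WT with WR medium, 0, 0 and 1 for WT with EGF medium, 1, 0 and 2 for KO with EGF medium, and 0, 0 and 3 for KO with EGF-WR medium. WT in EGF-WR medium and KO in WR medium had none, which allows up to 3 counts in a library. The 10 counts in WT in WR medium came from 2 of 3 libraries, and no change was detectable at this depth. Its receptor gene Tnfrsf11a (RANK) was well covered at 34.0 CPM on average. Against WR medium, Tnfrsf11a rose by 0.58 ± 0.10 on the log2 scale in EGF medium (edgeR adjusted p = 0.000334) and by 0.75 ± 0.10 in EGF-WR medium (3.68e-05).

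Prom1 was lowest in WR medium, and its mean in EGF-WR medium (26.4 CPM) lay above that in EGF medium (22.1 CPM), within the spread of the libraries. Prom1 levels in WT were 15.05, 15.7 and 10.1 CPM with WR medium, 19.2, 20.1 and 23.0 with EGF medium, and 21.4, 24.8 and 33.8 with EGF-WR medium. KO levels of Prom1 were 10.6, 14.0 and 16.9 CPM with WR medium, 21.5, 23.0 and 25.8 with EGF medium, and 21.2, 17.1 and 40.0 with EGF-WR medium. All 12 libraries with EGF lay above all 6 without it, by a narrow margin, and batch 3 was highest in EGF-WR medium. Against WR medium, Prom1 rose by 0.67 ± 0.17 on the log2 scale with EGF, 1.60-fold (edgeR adjusted p = 0.0067), and by 0.90 ± 0.17 with all 3 factors, 1.87-fold (0.000933). The former was lost without batch 1 (edgeR adjusted p = 0.0677). EGF-WR and EGF media differed by 0.23 ± 0.16 (95% interval -0.12 to 0.58, edgeR adjusted p = 0.35). Prom1 shares 5.10% of its 50-base windows with other genes and overlaps an antisense gene (Gm16401), whose reads cannot be told apart from its own if strand was not used in counting.

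Ly6a ran opposite to Esr1, lowest in EGF medium and higher in both media with NGS-Wnt and Rspo2. Ly6a levels in WT were 17.6, 29.3 and 26.2 CPM with WR medium, 10.2, 11.5 and 15.98 with EGF medium, and 15.4, 36.6 and 34.4 with EGF-WR medium. KO levels of Ly6a were 29.4, 26.7 and 58.7 CPM with WR medium, 8.40, 12.3 and 27.2 with EGF medium, and 16.3, 32.8 and 71.1 with EGF-WR medium. The 3 KO libraries of batch 3 were each the highest of their medium, and within every batch and genotype the EGF library was the lowest. EGF against WR medium gave a drop of 1.16 ± 0.22 on the log2 scale, to 0.448 of the level (edgeR adjusted p = 0.00158), called only with the batch term (0.0616 without it). EGF-WR medium stood 1.21 ± 0.22 above EGF medium, 2.32-fold (edgeR adjusted p = 0.00128), and differed from WR medium by 0.06 ± 0.22 (95% interval -0.41 to 0.52, edgeR adjusted p = 0.898). Of the windows of Ly6a, 19.0% occur in other genes, most of them (195 of 246) in Ly6c1, which had 1.58 to 3.56 CPM in the group means, so that a part of the reads could be assigned to either gene.

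Counted over the members, 7 of 7 were called in EGF against WR medium averaged over genotypes, 6 up (Esr1, Pgr, Prlr, Cited1, Stc2, Prom1) and Ly6a down, where 25.5% of all tested genes were called. In EGF-WR against WR medium 4 of 7 were called, all up (Prlr, Cited1, Stc2, Prom1), where 22.9% of all genes were called. In EGF-WR against EGF medium 4 of 7 were called, Esr1, Pgr and Prlr down and Ly6a up, where 27.9% of all genes were called. The median log2 change of the 7 members was 0.67, 0.55 and -0.33 in these comparisons, and that of all tested genes -0.02, 0.00 and 0.01. The 3 comparisons share libraries, so their values are set side by side and not as separate evidence. The members fell into 2 patterns with 1 gene apart: Esr1 and Pgr were high only in EGF medium among the 3 media, Prlr, Cited1, Stc2 and Prom1 were high in both media with EGF, and Ly6a was low in EGF medium alone. These patterns are a description of calls made on the same libraries. The members were chosen with earlier results of these data known, so the shares of all genes beside their counts make no test.

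**Figure D2:**
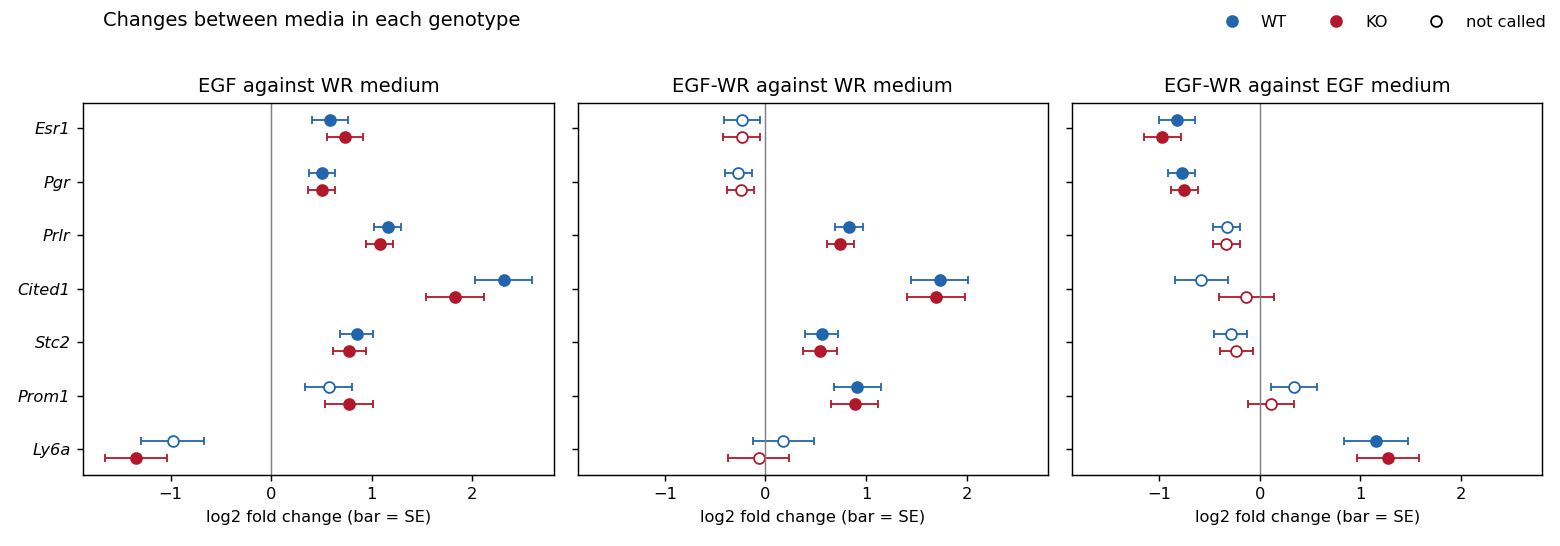
Log2 fold change (x axis, bars ± SE) of the 7 tested genes between media, in WT (blue) and KO (red) separately, filled where called at an adjusted p under 0.05. The WT and KO points of a gene lie on the same side of 0 wherever either is called, and Esr1 and Pgr cross from the right in EGF against WR medium to the left in EGF-WR against EGF medium.

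Within single genotypes, every call had the direction of the average. In EGF against WR medium, 5 of 7 members were called in WT, all up, where 15.4% of all genes were called, and 7 of 7 in KO, 6 up and Ly6a down, where 13.5% were; the average had 7. The members not called in WT were Prom1 (0.57 ± 0.24, edgeR adjusted p = 0.126) and Ly6a (-0.98 ± 0.31, edgeR adjusted p = 0.0536; DESeq2 0.00359). In EGF-WR against WR medium, Prlr, Cited1, Stc2 and Prom1 were called in both genotypes, 4 of 7 each, where 10.7% of all genes were called in WT and 12.7% in KO, as many members as in the average. Ly6a, not called there, stood at 0.18 in WT and -0.07 in KO on the log2 scale. In EGF-WR against EGF medium, Esr1, Pgr and Ly6a were called in both genotypes, 3 of 7 each, where 15.6% of all genes were called in WT and 11.6% in KO, without the fourth call of the average, Prlr. Without the batch term the members called within WT and KO were 3 and 3, 2 and 2, and 0 and 0 in these 3 comparisons. All genes called also became fewer, at 888 and 729, 404 and 439, and 369 and 115. The members left were Prlr, Cited1 and Stc2 in the first and Prlr and Cited1 in the second.

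Several calls within a genotype also depended on single libraries. The rise of Esr1 in EGF against WR medium in WT (0.59 ± 0.18, edgeR adjusted p = 0.0333) was lost without WT in WR medium of batch 1, 2 or 3 (0.0881, 0.139 and 0.0585) or WT in EGF medium of batch 2 or 3 (0.092 and 0.123). In KO (0.73 ± 0.18, edgeR adjusted p = 0.0102) it was lost without KO in WR medium of batch 1 (0.0711) or KO in EGF medium of batch 2 or 3 (0.0621 and 0.0539). The rise of Pgr in WT (0.51 ± 0.13, edgeR adjusted p = 0.0134) was lost without WT in WR medium of batch 1 or 3 (0.0975 and 0.0535) or WT in EGF medium of batch 3 (0.0782). In KO (0.50 ± 0.13, edgeR adjusted p = 0.0159) it was lost without KO in EGF medium of batch 1 (0.0789) or KO in WR medium of batch 2 (0.0903). Each of these 4 calls was also lost on leaving out a whole batch: Esr1 in WT without batch 2 or 3 (0.228 and 0.147) and in KO without batch 2 (0.127), and Pgr in WT without batch 1 or 3 (0.100 and 0.189) and in KO without any 1 batch (0.114, 0.0688 and 0.0604). The steps of both receptors were of similar size in WT and KO.

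The same held for part of the other members. Prom1 in EGF against WR medium in KO (0.78 ± 0.24, edgeR adjusted p = 0.0405) was lost on leaving out any of 13 libraries, with adjusted p up to 0.161, and held only without WT in WR medium of any batch or KO in EGF-WR medium of batch 2 or 3. Stc2 in EGF-WR against WR medium was lost on leaving out any of 12 libraries each in WT (0.56 ± 0.16, edgeR adjusted p = 0.0436, up to 0.181) and KO (0.54 ± 0.16, 0.0456, up to 0.202). In WT it held without KO in EGF-WR medium of batch 1 or 2, KO in WR medium of batch 1 or 3, WT in WR medium of batch 2 or WT in EGF-WR medium of batch 3. In KO it held without WT in EGF-WR medium of batch 1 or 3, WT in WR medium of batch 2 or 3, KO in EGF-WR medium of batch 2 or KO in WR medium of batch 3. Prom1 in that comparison was lost in WT (0.91 ± 0.24, edgeR adjusted p = 0.0199) without WT in EGF-WR medium of batch 2 or 3 (0.0615 and 0.0822) or WT in WR medium of batch 3 (0.0753). In KO (0.89 ± 0.24, edgeR adjusted p = 0.0209) it was lost without any of the KO libraries in WR medium (0.107, 0.0538 and 0.0526) or KO in EGF-WR medium of batch 3 (0.147). For Prlr and Cited1, no single library took away a call within a genotype against WR medium, and leaving out a batch took away 1, that of Prlr in EGF-WR against WR medium in KO without batch 2 (edgeR adjusted p = 0.0594). Without batch 1, Stc2 in EGF against WR medium in KO was lost (edgeR adjusted p = 0.0686), as were Prom1 in that comparison (0.293) and Stc2 and Prom1 in EGF-WR against WR medium in WT (0.342 and 0.0948) and KO (0.461 and 0.212). Without batch 2, the Prom1 calls were lost too (0.151 in EGF against WR medium in KO, and 0.0696 in WT and 0.0502 in KO in EGF-WR against WR medium), and without batch 3 those of EGF-WR against WR medium (0.113 in WT and 0.0642 in KO) and Stc2 in WT (0.0895).

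Ly6a within genotypes showed the same dependence. Its drop in EGF against WR medium in KO (-1.34 ± 0.31, edgeR adjusted p = 0.0113) was lost without KO in EGF medium of batch 1 or 2 (0.0568 and 0.0657) or KO in WR medium of batch 1 (0.0524). Its rise in EGF-WR against EGF medium in WT (1.15 ± 0.31, edgeR adjusted p = 0.0256) was lost without WT in EGF medium of batch 2 or 3 (0.102 and 0.146) or WT in EGF-WR medium of batch 2 (0.127). In KO (1.27 ± 0.31, edgeR adjusted p = 0.0193) it was lost without KO in EGF medium of batch 1 or 2 (0.0789 and 0.0903) or KO in EGF-WR medium of batch 3 (0.109). Leaving out whole batches took away the drop in KO without batch 1 or 2 (edgeR adjusted p of 0.127 and 0.0528), the rise in WT without batch 2 (0.198) and the rise in KO without any 1 batch (0.0748, 0.0945 and 0.0605). In the same comparison the drops of Esr1 in WT (-0.82 ± 0.18, edgeR adjusted p = 0.00512) and KO (-0.97 ± 0.18, 0.00275), and of Pgr in WT (-0.78 ± 0.13, 0.000863) and KO (-0.75 ± 0.13, 0.00199), held without any 1 library but not without every batch. Esr1 was lost without batch 2 or 3 in WT (edgeR adjusted p of 0.0782 and 0.145) and in KO (0.0637 and 0.0770), and Pgr without batch 3 in WT (0.0602) and KO (0.0603). Without the batch term none of the members' calls of this comparison within a genotype held, and 369 genes in WT and 115 in KO were called.

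The loss of RasGRP1 changed no member past the threshold. In KO against WT, edgeR called 0 of 7 members with WR medium (0.0819% of all genes called), 0 with EGF medium (0.0702%), 0 with EGF-WR medium (0.0819%) and 0 with the media averaged (0.339%). At an unadjusted p under 0.05 the counts were 0, 1, 0 and 1, all Cited1. Of all 17092 genes, 889, 557, 708 and 1842 were under that p. DESeq2 called 0 members in each, beside 29, 34, 30 and 190 of all genes. Over the average of the media, the KO minus WT log2 difference had 95% intervals of -0.23 to 0.21 for Esr1, -0.20 to 0.12 for Pgr, -0.21 to 0.12 for Prlr, -0.33 to 0.08 for Stc2 and -0.26 to 0.32 for Prom1. For these 5 genes a difference larger than about 0.33 either way lay outside the interval. Cited1 was lower in KO by 0.35 ± 0.16 (95% interval -0.68 to -0.01, edgeR adjusted p = 0.451), with means of 5.85 CPM in KO and 7.74 in WT. Its KO and WT levels ran from 3.95 to 10.4 and from 11.4 to 14.1 CPM in EGF medium. They ran from 7.02 to 7.23 and from 7.85 to 8.52 CPM in EGF-WR medium. In WR medium the KO and WT ranges overlapped (1.48 to 2.79 and 1.89 to 3.11 CPM). An exact permutation test of 3 against 3 libraries cannot go below p = 0.1, and the share of all genes so separated was not counted. The difference in EGF medium was -0.66 ± 0.27 (95% interval -1.22 to -0.09, edgeR adjusted p = 1) and came mostly from batch 2, at -1.58 against -0.44 and -0.17 in batches 1 and 3. Ly6a was higher in KO by 0.39 ± 0.18 (95% interval -0.00 to 0.77, edgeR adjusted p = 0.468), by 0.99 in batch 3 and by 0.18 and -0.06 in batches 1 and 2.

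Whether a medium acted differently in KO and WT was tested by interactions, and edgeR called none for any gene: 0% of 17092 genes in EGF against WR medium, 0% in EGF-WR against WR medium and 0% in EGF-WR against EGF medium. At an unadjusted p under 0.05 there were 356, 286 and 306 genes and no member, and DESeq2 called 0, 1 and 0 genes and no member. The intervals were wide for the genes that vary most. For Cited1 the EGF against WR response in KO minus that in WT was -0.48 ± 0.39 (95% interval -1.32 to 0.35), and for Ly6a -0.37 ± 0.44 (-1.32 to 0.58). For Pgr it was -0.00 ± 0.19 (95% interval -0.40 to 0.39), for Prlr -0.08 ± 0.19 (-0.49 to 0.32) and for Esr1 0.15 ± 0.25 (-0.39 to 0.68). For Cited1 and Ly6a the intervals thus reach past -1 on the log2 scale, and for the 3 receptors they stay within 0.68 of 0.

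The authors' deposited table gives its own adjusted p per comparison and led to nearly the same members. Under 0.05 in the authors' deposited table were 6 members for EGF against WR medium in WT, those called here plus Ly6a, and 7 in KO. For EGF-WR against WR medium the authors' deposited table had 4 in WT and 4 in KO, for EGF-WR against EGF medium 3 and 3, and for the genotype comparisons 0 in each medium.

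The share of variance tells the members apart further. On the log2 CPM scale, the medium held 89.4% of the variance of Prlr, 83.2% of Cited1, 68.5% of Stc2, 65.8% of Esr1, 62.1% of Prom1, 44.7% of Ly6a and 43.7% of Pgr. The batch held 48.7% in Pgr and 35.3% in Ly6a against 2.09% in Prlr and 3.48% in Cited1. Pgr was low in batch 2 (mean of 22.6 CPM against 38.5 and 35.4 in batches 1 and 3), and Ly6a was high in batch 3 (38.9 CPM against 16.2 and 24.9 in batches 1 and 2). The genotype held at most 5.05%, in Ly6a. Pgr and Ly6a, the 2 genes with the largest batch shares, were also the 2 whose EGF against WR call was lost without the batch term.

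**Figure D3:**
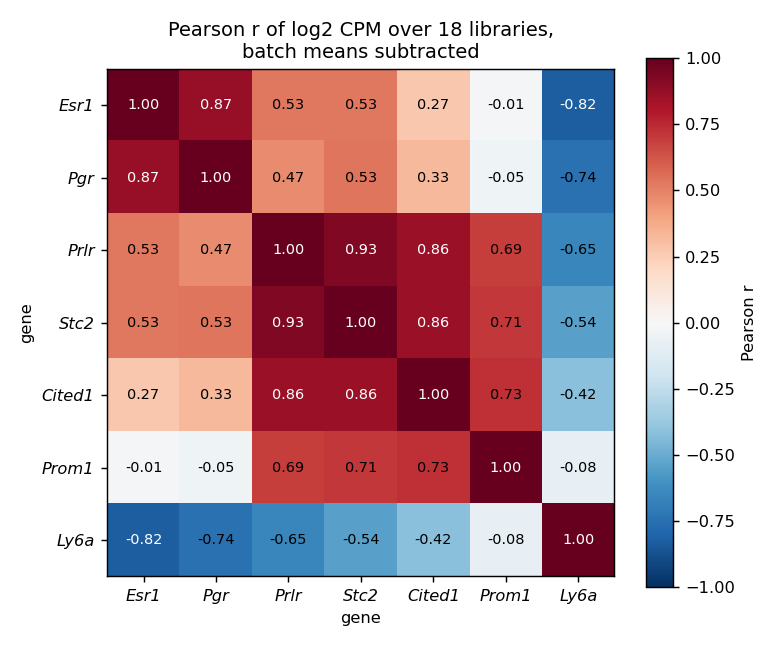
Pearson r of log2 CPM between each pair of the 7 tested genes over 18 libraries after each batch mean was subtracted, red for positive and blue for negative r, with the value in each cell. Esr1 and Pgr (0.87) form one block, Prlr, Stc2 and Cited1 (0.86 to 0.93) another with Prom1 (0.69 to 0.73), and Ly6a is negative with all 6 others.

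After batch means were subtracted, Esr1 and Pgr had r = 0.87 over the 18 libraries, and Prlr, Stc2 and Cited1 had r from 0.86 to 0.93 among themselves. Prom1 had r of 0.69 to 0.73 with those 3 genes and of -0.01 with Esr1 and -0.05 with Pgr. Ly6a was negative with Esr1 (-0.82), Pgr (-0.74) and Prlr (-0.65). All points share the media, so these values describe how alike the profiles are and carry no test. Among 11191 other genes, the profiles most like Esr1 were those of Cxcl14 (r = 0.95), a chemokine, Bace2 (0.95) and Scarb2 (0.94), and the most opposite was Snx1 (-0.94). Most like Pgr were Abcc3 (0.95), Nfkbie (0.92) and Plekhg3 (0.91), with the ribosomal protein gene Rps14 most opposite (-0.96). Prlr was nearest to Syn2, Ammecr1 and Tnfrsf21 (each 0.97) and farthest from the connexin gene Gjb2 (-0.97). Cited1 was nearest to Socs2 (0.95), a STAT5-induced feedback inhibitor of cytokine signalling, Afap1l2 (0.94) and Epn2 (0.94), and farthest from the connexin gene Gja1 (-0.97). Stc2 was nearest to Kremen1 (0.94), the retinoic acid receptor gene Rara (0.94) and Syn2 (0.94), and farthest from Adgrl2 (-0.94). Genes near Prom1 were the chemokine receptor gene Cxcr4 (0.93) and the glycolytic enzyme gene Pkm (0.92), and it was farthest from Fbn2 (-0.90). Ly6a was nearest to Knstrn, Irx5 and Shank1 (each 0.89) and farthest from Mdk (-0.93). Of the 21 nearest genes (3 for each of 7 members), 4 stayed when batch means were not subtracted.

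Other genes of the hormone response were read from lists. The list counts below stand beside 25.5%, 22.9% and 27.9% of all tested genes called in the 3 comparisons, in the order given. Of 13 tested hormone-sensing luminal genes, 3 rose and 1 fell in EGF against WR medium, 2 rose and 4 fell in EGF-WR against WR medium, and 2 rose and 4 fell in EGF-WR against EGF medium. Foxa1, a pioneer factor of the oestrogen receptor, rose by 0.89 ± 0.16 on the log2 scale with EGF and by 0.96 ± 0.16 with all 3 factors against WR medium. Wnt4, a paracrine target of progesterone, fell by 1.00 ± 0.18 and 1.06 ± 0.18, opposite to Pgr in the first. Areg (amphiregulin) and Greb1, both oestrogen targets, rose by 0.73 ± 0.20 and 0.52 ± 0.16 in EGF against WR medium and fell by 0.81 ± 0.20 and 1.19 ± 0.17 in EGF-WR against EGF medium, the order of Esr1 and Pgr. Xbp1 rose by 0.90 ± 0.09 in EGF-WR against WR medium and had its highest means in EGF-WR medium in both genotypes, unlike Esr1. Of 16 tested cofactors and targets of the oestrogen and progesterone receptors, 7 rose and 2 fell, 5 rose and 4 fell, and 3 rose and 4 fell in the 3 comparisons. With no batch term the counts for this list were 4 up and 2 down, 2 and 3, and 3 and 2, and those for the hormone-sensing genes 2 and 1, 2 and 3, and 1 and 3. Of the cofactors and targets, Cited2 and Igfbp5 rose by 1.04 ± 0.10 and 1.11 ± 0.12 in EGF against WR medium. Myb of the same list had its lowest means in EGF medium (51.0 CPM in WT and 41.4 in KO), where those of Esr1 were highest. The list medians were 0.13 for hormone-sensing genes and 0.06 for cofactors and targets in EGF against WR medium, beside -0.02 for all genes.

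Of 12 tested genes of prolactin and JAK-STAT5 signalling, 3 rose and none fell in EGF against WR medium, where 25.5% of all tested genes were called. In EGF-WR against WR medium 2 rose (22.9% of all genes called). In EGF-WR against EGF medium 2 rose and 2 fell (27.9%). Socs2 rose most, by 1.91 ± 0.08 on the log2 scale with EGF and by 1.50 ± 0.08 with all 3 factors (edgeR adjusted p of 3.98e-11 and 1.31e-09), and fell by 0.40 ± 0.08 from EGF to EGF-WR medium, the order of Prlr. Jak2, the kinase bound to the receptor, rose by 0.33 ± 0.06 in EGF against WR medium and fell by 0.36 ± 0.06 from EGF to EGF-WR medium. Stat5a rose by 0.23 ± 0.07 in EGF against WR medium, a call absent without the batch term (edgeR adjusted p of 0.0221 and 0.239). Elf5, an alveolar transcription factor, rose by 0.28 ± 0.08 and 0.42 ± 0.08 in EGF-WR against WR and EGF media. The other STAT5 feedback gene Cish stood at -0.09 ± 0.17 in EGF against WR medium and was not called. In the RANK pathway, 2 of 10 rose and 2 fell, 1 rose and 3 fell, and 1 rose and 2 fell. Beside Tnfrsf11a, Id2 rose by 0.54 ± 0.16 in EGF against WR medium. The cyclin gene Ccnd1 fell by 1.29 ± 0.06 in EGF against WR medium and by 0.49 ± 0.06 in EGF-WR against WR medium, and it rose by 0.80 ± 0.06 from EGF to EGF-WR medium. The counts without the batch term were 2 up and 0 down, 1 and 0, and 1 and 2 for prolactin signalling, and 2 and 1, 1 and 2, and 1 and 0 for the RANK pathway.

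A list of receptors of other hormones, which also holds the ligand gene Pthlh, split into both directions. It had 8 of 20 up and 3 down, 4 up and 8 down, and 3 up and 10 down. In EGF against WR medium the G-protein coupled oestrogen receptor gene Gper1 rose by 1.78 ± 0.21 on the log2 scale, the oestrogen-related receptor gene Esrrg by 1.76 ± 0.24 and Rara by 0.97 ± 0.13, and the thyroid hormone receptor gene Thrb fell by 1.43 ± 0.16. The second oestrogen receptor gene, Esr2, was low at 0.272 CPM and not called. In EGF-WR against EGF medium Pth1r, the receptor gene of parathyroid hormone, fell by 1.68 ± 0.29, and Pthlh, a ligand of that receptor, by 1.09 ± 0.13. In EGF-WR against WR medium Esrrg rose by 2.70 ± 0.24. Without the batch term the counts for this list were 7 up and 1 down, 3 and 3, and 3 and 3.

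Other cell types moved with the media too. Luminal progenitor markers, of cells held to lack the hormone receptors, had 7 of 11 up and 1 down in EGF against WR medium, 6 up and none down in EGF-WR against WR medium, and 2 up and 5 down in EGF-WR against EGF medium. Examples in EGF against WR medium were Csn3 (5.25 ± 0.25), Hey1 (2.12 ± 0.17), Mfge8 (1.57 ± 0.10) and Cd14 (1.53 ± 0.08), and the marker that fell was the lactoferrin gene Ltf (-1.07 ± 0.09). The 3 not called there were Kit, Elf5 and Lif. Kit and Elf5 had lower means in EGF than in WR medium in both genotypes, and Lif had higher means. Counts without the batch term were 7 up and 1 down, 5 and 0, and 2 and 3. The summed level of the progenitor list ran from 8774.3 to 12522 CPM in the EGF libraries and from 4565.8 to 6233.9 CPM in the WR libraries. Lcn2 and Mfge8 had the highest means of the list in EGF medium. In WT they stood at 3936.5 and 2367.8 CPM there, against 1485.1 and 798.32 CPM in WR medium. Basal markers had 1 of 10 up and 5 down in EGF against WR medium, none up and 7 down in EGF-WR against WR medium, and 5 up and 3 down in EGF-WR against EGF medium, with Krt17 at -2.63 ± 0.22, Lgals7 at -1.16 ± 0.11, Krt5 at -1.15 ± 0.12 and Krt14 at -0.97 ± 0.08 in the first. The list did not move as one. The contractile genes Acta2, Myh11, Mylk and Cnn1 stood at 0.08 ± 0.12, 0.15 ± 0.16, -0.06 ± 0.12 and -0.09 ± 0.20 in EGF against WR medium and were not called, and the oxytocin receptor gene Oxtr rose by 0.73 ± 0.18 (edgeR adjusted p = 0.00978, and 0.0961 without the batch term). From EGF to EGF-WR medium the 3 that fell were Acta2 (-0.78 ± 0.13), Myh11 (-1.24 ± 0.17) and Mylk (-0.86 ± 0.12), while Krt17, Lgals7, Krt5 and Krt14 were among the 5 that rose. With no batch term the counts were 0 up and 5 down, 0 and 6, and 2 and 3. Their summed level ran from 3928.6 to 5426.2 CPM in the EGF libraries and from 6791.1 to 9826.7 CPM in the WR libraries, and Krt5 and Krt14 had the highest mean levels in it (2140.4 and 2108.0 CPM, against 647 for Acta2). Luminal keratins and epithelial markers had 3 of 9 up and 3 down, 4 and 2, and 2 and 1, with Krt18 and Krt19 at 0.58 ± 0.09 and -0.63 ± 0.10 in EGF-WR against WR medium, and without the batch term 2 and 0, 3 and 1, and 0 and 0. In both media with EGF, where Prlr, Cited1, Stc2 and Prom1 were higher than in WR medium, the basal sum was lower and the progenitor sum higher. With EGF alone, the contractile genes of the basal list and Kit, Elf5 and Lif of the progenitor list were not called. The part of either cell type in the members' changes was not tested. Proliferation genes had 7 of 10 down in EGF against WR medium, 1 up in EGF-WR against WR medium, and 10 of 10 up in EGF-WR against EGF medium, with Aurkb at -0.49 ± 0.10 in the first, Cdk1 at 0.31 ± 0.10 in the second, and Mki67 at -0.58 ± 0.11 and 0.55 ± 0.11 in the first and the third. Without the batch term 2, 0 and 4 of these were called.

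Stromal markers fell in EGF-WR medium. Against WR medium, 8 of 10 fibroblast markers, 9 of 10 endothelial markers and 8 of 8 adipocyte markers fell, 1 endothelial marker rose (Flt1, 0.62 ± 0.20), and 4 of 8 myeloid markers fell and 1 rose (Cd14, which luminal progenitors also express, 0.96 ± 0.08). Against EGF medium 8 of 10, 10 of 10, 8 of 8 and 4 of 8 fell. In EGF against WR medium, 2 fibroblast markers rose (Pdgfra, 0.80 ± 0.09, and Col3a1, 0.75 ± 0.19), Flt1 (1.54 ± 0.20) and Cd14 (1.53 ± 0.08) rose, and 2 adipocyte markers fell (Cidec, -0.99 ± 0.28, and Adipoq, -0.93 ± 0.28). Col3a1, Cidec and Adipoq were not called there without the batch term. Examples in EGF-WR against WR medium were Dcn (-1.83 ± 0.24), Kdr (-1.43 ± 0.26) and Plin1 (-2.94 ± 0.31), and Csf1r fell by 1.45 ± 0.32 from EGF to EGF-WR medium. Without the batch term 3, 9, 8 and 0 of these markers fell in EGF-WR against WR medium and 4, 9, 3 and 2 against EGF medium. Cd4, the single lymphocyte gene tested, was not called. The fall of stromal RNA went with the drop of Esr1 and Pgr from EGF to EGF-WR medium, and its part in that drop was not tested. Ly6a rose by 1.21 ± 0.22 in that comparison, in which the endothelial and fibroblast lists fell. In EGF against WR medium, where Ly6a fell, 8 of 10 fibroblast and 9 of 10 endothelial markers were not called. The part of stromal RNA in the level of Ly6a was not tested.

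Among the genes that neighbour or resemble Ly6a in its family, 1 of 6 tested rose and 2 fell in EGF against WR medium, 1 rose and 3 fell in EGF-WR against WR medium, and 1 rose in EGF-WR against EGF medium. Ly6e, the most abundant at 2376 CPM, rose by 0.59 ± 0.05 in EGF against WR medium, where Ly6a fell. Ly6g6c fell by 3.09 ± 0.30 in EGF against WR medium and rose by 1.56 ± 0.30 from EGF to EGF-WR medium, the directions of Ly6a, at a mean of 2.81 CPM. Ly6c1, which shares sequence with Ly6a, stood at -0.21 ± 0.30 in EGF against WR medium and fell by 0.86 ± 0.30 in EGF-WR against WR medium (edgeR adjusted p = 0.0487, and 0.101 without the batch term). Ly6c2, Ly6f, Ly6g and Ly6i were under 0.1 CPM on average. From EGF to EGF-WR medium, Ly6c1 stood at -0.65 ± 0.30 and was not called, where Ly6a rose. The counts of this list without the batch term were 1 up and 2 down, 1 and 2, and 1 and 0.

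Interferon-stimulated genes moved with Ly6a in part of the libraries and opposite to it in others. Of 16 tested, 2 rose in EGF against WR medium, 12 in EGF-WR against WR medium and 11 in EGF-WR against EGF medium, and none fell. Without the batch term the counts were 0, 6 and 0. In EGF-WR against WR medium Oas1a rose by 2.14 ± 0.34, Oas2 by 1.68 ± 0.49 and Irf7 by 1.57 ± 0.29 on the log2 scale. Their summed level was 230.42 to 279.58 CPM in WT in WR medium, 275.97 to 332.33 for WT with EGF and 320.47 to 762.09 for WT with all 3 factors. In KO it was 242.14 to 753.41, 334.55 to 1021.7 and 502.69 to 1617.8 CPM. In batch 3, where Ly6a was 0.99 higher in KO on the log2 scale, the sum was 753.41, 1021.7 and 1617.8 CPM in KO and 230.42, 332.33 and 762.09 CPM in WT, in WR, EGF and EGF-WR medium. In batch 1, the Ly6a level in KO in WR medium was 29.4 CPM against 17.6 in WT at sums of 242.14 and 247.64 CPM. From WR to EGF medium Ly6a fell in every batch and genotype. The interferon sum rose there in each WT batch, from 247.64 to 275.97, 279.58 to 318.06 and 230.42 to 332.33 CPM. In KO it rose in batch 1 (242.14 to 334.55 CPM) and batch 3 (753.41 to 1021.7 CPM) and fell in batch 2 (428.84 to 406.27 CPM). The part of the interferon-stimulated genes in the level of Ly6a was not tested.

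**Figure D4:**
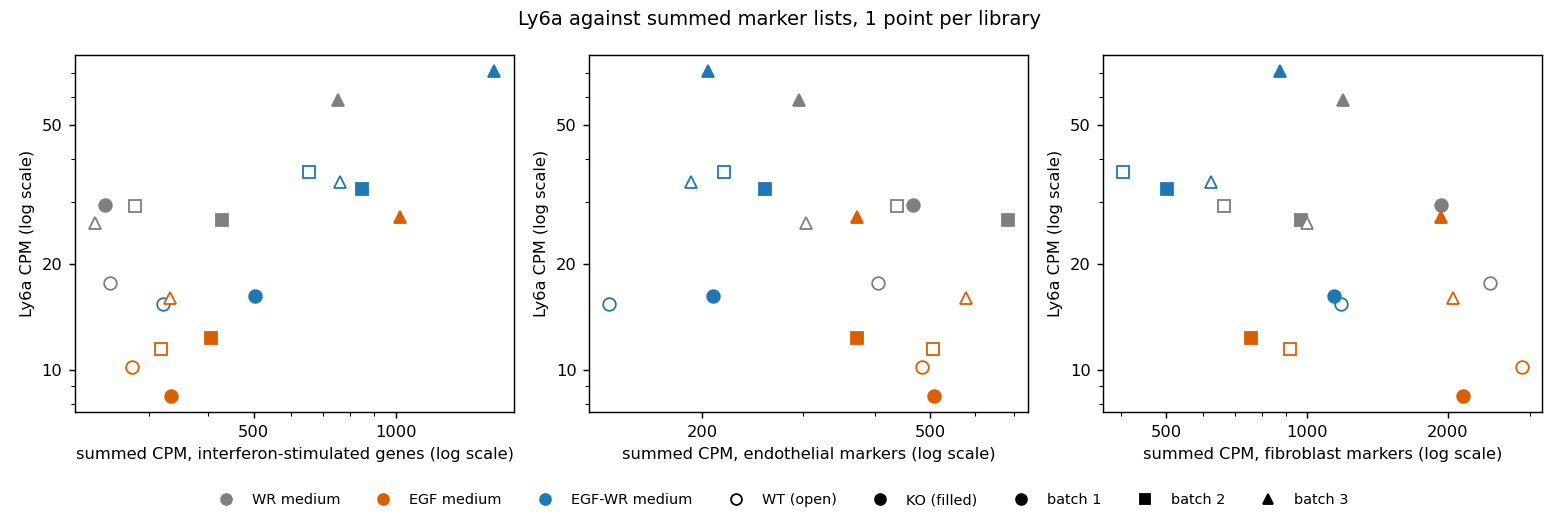
Ly6a (CPM, log axis) against the summed CPM (log axis) of the interferon-stimulated, endothelial and fibroblast lists, with 1 point per library, colour for the medium, open for WT and filled for KO, and shape for the batch. The KO libraries of batch 3 in WR and EGF-WR medium have the highest Ly6a (58.7 and 71.1 CPM), the EGF-WR one also has the highest interferon sum (1617.8 CPM), and the EGF libraries have 8.40 to 27.2 CPM of Ly6a at endothelial sums of 372.14 to 578.52 CPM. The KO library of batch 3 in EGF medium has 27.2 CPM of Ly6a at an interferon sum of 1021.7 CPM.

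Averaged over the media, edgeR called no gene of these 16 lists between KO and WT, 0 of 161 tested, beside 0.339% of all genes. At an unadjusted p under 0.05 there were 29 of the 161, beside 1842 of all 17092 genes. DESeq2 called 190 of all genes and 9 of the 161. These 9 were Irf9, Irf7, Oasl2, Usp18, Isg15, Ifit2 and Bst2 of the interferon list, Ly6e and Dpt. All 9 were higher in KO, by 0.17 (Ly6e) to 1.15 (Irf7) on the log2 scale in edgeR. Of the hormone-linked genes, Foxa1 stood at -0.25 ± 0.13, Areg at 0.00 ± 0.17, Socs2 at -0.02 ± 0.07 and Tnfrsf11a at 0.00 ± 0.08 in KO against WT.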

How the data were processed

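The labels describe RNA-seq of 18 libraries, each made from 100 ng of total RNA and sequenced in single 50-base reads. Read counts per gene were made by the authors with STAR on GRCm38, per the submitters' processing notes, and deposited unnormalised. The authors' log2 fold changes and adjusted p-values come from their deposited comparison table, whose headers name batch terms. The submitters' processing notes also name DESeq2. The sources used here give neither tool versions nor whether strand was used in counting.

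Counts were fitted with edgeR 4.0.16 (R 4.3.3; TMM, filterByExpr with minimum counts of 10 and 15 in all, robust quasi-likelihood F-test, two-sided) with 1 mean per group and a batch term, and adjusted over 17092 genes within each of 16 contrasts. The batch term was used because the labels give each replicate number as a batch that holds 1 library of every group. SE is the log2 change over the square root of F. Alternatives were no batch term, DESeq2 1.42.0, RLE factors, no filter, and leaving out each batch or library. An exact permutation test of 3 against 3 libraries cannot go below p = 0.1. P-values weigh a change against the spread left between these libraries after the group and batch terms, moderated over genes. Whether that is spread between mice is not known. Scripts were tested on simulated data.

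The members and lists were chosen with earlier results of these data known. Named were all members in every contrast, up to 4 called genes of each list with the largest change at 1 CPM or more, and for each member the 3 genes of highest and the 1 of lowest r (log2 CPM, prior count 2, batch means subtracted, 4 CPM or more). Some genes that this rule names are not reported here. Esr2, Cish, Cnn1, Oxtr, Myb and the list genes given between KO and WT were named after their values were seen. So were Kit, Elf5 and Lif as progenitor markers not called. Shared sequence was counted in 50-base windows of GENCODE exons.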

Additional observations from a re-analysis of the deposited data

How the results depend on the processing

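Of 112 log2 changes of members (7 genes, 16 contrasts), none reversed a called direction under any alternative. RLE factors kept the direction and the call of all 112, DESeq2 of 110 with 2 gained, and no filter on low counts of 107 with 5 lost. Without the replicate block 87 kept both, 19 lost the call and 6 uncalled values moved. Leaving out 1 library kept 1821 of 2016, lost 68 and gained 13, and leaving out 1 batch kept 252 of 336, lost 37 and gained 4. The batch term carried many calls. Without the replicate block, members called within WT and KO were 3 and 3 in EGF against WR medium, 2 and 2 in EGF-WR against WR medium, and 0 and 0 in EGF-WR against EGF medium. All genes called without the replicate block (average, WT, KO) were 2022, 888 and 729 in EGF against WR medium, 1730, 404 and 439 in EGF-WR against WR medium, and 1743, 369 and 115 in EGF-WR against EGF medium. In KO against WT they were 5 in WR medium, 6 in EGF-WR medium and 22 over the average, and DESeq2 called 29 in WR, 34 in EGF and 30 in EGF-WR medium, 190 over the average and 1 in the interaction of EGF-WR against WR medium. The causes of these shifts were not tested.

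With 1 batch or library left out, members called in EGF against WR medium ran from 3 to 7 in WT and from 3 to 7 in KO, in EGF-WR against WR medium from 2 to 4 in each, and in EGF-WR against EGF medium from 1 to 4 in WT and from 0 to 4 in KO. All genes called ran from 2134 to 4405 (average), 969 to 2769 (WT) and 906 to 2394 (KO) in EGF against WR medium, where 4355, 2639 and 2306 were called with all libraries. They ran from 2299 to 3939, 785 to 1943 and 945 to 2198 in EGF-WR against WR medium (3921, 1835 and 2179), and from 1874 to 4943, 653 to 2856 and 366 to 2135 in EGF-WR against EGF medium (4771, 2672 and 1991). In KO against WT they ran from 3 to 14 in WR medium, 5 to 15 in EGF medium, 4 to 16 in EGF-WR medium and 19 to 90 over the average (14, 12, 14 and 58). The 17 counts of Tnfsf11 were too few for a test.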
